A study of Mus musculus with 24 samples.

Results

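The Cyp4a and Cyp4f fatty acid hydroxylases described here are 10 of the 23411 gene symbols in the count table, chosen by name: Cyp4a10, Cyp4a14, Cyp4a12a, Cyp4a12b, Cyp4a31, Cyp4a32, Cyp4f13, Cyp4f14, Cyp4f15 and Cyp4v3. They were followed in poly(A) RNA of 24 male mouse livers, 3 mice in each of 8 groups. WT mice were compared with α7HMZ mice, which carry an exon-swap allele of Hnf4a in every cell of the body and make only P2-HNF4α, the isoform from the second promoter of the gene. All mice had a mixed 129/Sv plus C57BL/6 background, were 16 to 20 weeks old and ate LabDiet 5001. Livers of each genotype were taken from mice with free access to food at 10:30, 13:30 and 20:30, and from mice fasted for 12 h at 10:30. All 10 genes had enough reads in both fits to be tested.

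Enzymes of the cytochrome P450 4 family place a hydroxyl group on the last carbon of a fatty acid (ω-hydroxylation), which opens the way to dicarboxylic acids that peroxisomes can shorten. The same reaction on arachidonic acid gives 20-HETE, a lipid that acts on blood vessels and the kidney. Cyp4a10 and Cyp4a14 are textbook targets of PPARα, the nuclear receptor that senses fatty acids in the fasted liver, whereas Cyp4a12a is the 20-HETE synthase of male mice and follows androgen. Cyp4f14 belongs to the branch that inactivates leukotriene B4, and Cyp4v3 is the mouse form of the gene mutated in a human crystalline retinal dystrophy.

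The sequences of the 10 genes set which reads can be told apart, so a stretch of each coding sequence as long as 1 read (75 bases, GENCODE M21 on GRCm38, which is mm10) is shown around the codon of the cysteine that holds the heme. It spans exons 11 and 12 of Cyp4a10 and the matching exons of the other genes, and capitals mark bases that differ from Cyp4a10.

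Cyp4a10: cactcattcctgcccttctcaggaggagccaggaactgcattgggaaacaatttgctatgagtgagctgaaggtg
Cyp4a14: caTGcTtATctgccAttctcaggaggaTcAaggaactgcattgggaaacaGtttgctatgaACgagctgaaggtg
Cyp4a12a: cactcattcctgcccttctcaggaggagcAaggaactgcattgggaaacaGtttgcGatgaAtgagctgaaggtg
Cyp4f14: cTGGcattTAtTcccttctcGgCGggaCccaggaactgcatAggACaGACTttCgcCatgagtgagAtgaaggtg
Cyp4v3: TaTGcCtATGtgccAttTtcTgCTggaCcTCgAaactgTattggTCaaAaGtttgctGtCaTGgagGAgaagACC

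Cyp4a31 and Cyp4a32 had the same 75 bases as Cyp4a10 here, and Cyp4a12b had those of Cyp4a12a, so a read from this stretch names a group of genes and not a gene. Cyp4a12a differed from Cyp4a10 at 4 bases, Cyp4a14 at 11, Cyp4f14 at 20 and Cyp4v3 at 30. The 6 Cyp4a genes lie in 1 cluster on chromosome 4, from the start of Cyp4a12a (chr4:115299046-115332815) past Cyp4a14 (chr4:115486200-115496142, minus strand) and Cyp4a10 (chr4:115518264-115533649, plus strand) to Cyp4a32 (chr4:115600969-115621602). The Cyp4f genes lie on chromosome 17, with Cyp4f14 at chr17:32905070-32917342 on the minus strand, and Cyp4v3 lies on chromosome 8 (chr8:45304944-45333216). Over whole coding sequences Cyp4a12a and Cyp4a12b were 98.5% identical with 23 differing bases, Cyp4a10 was 96.6% identical to Cyp4a31 and 97.2% to Cyp4a32, and Cyp4a14 was 76.1% identical to Cyp4a10. Of all 75-base windows along each transcript, 19.1% of Cyp4a10, 13.3% of Cyp4a31, 30.4% of Cyp4a32, 40.8% of Cyp4a12a and 41.3% of Cyp4a12b were identical to another Cyp4 transcript. Within 2 mismatches, 63.9% of Cyp4a10, 40.3% of Cyp4a31, 74.0% of Cyp4a32, 74.2% of Cyp4a12a and 75.1% of Cyp4a12b matched another one. The share within 2 mismatches was 0.248% for Cyp4a14, 4.05% for Cyp4f13, 6.05% for Cyp4f14, 3.68% for Cyp4f15 and 0% for Cyp4v3. Counts of Cyp4a10, Cyp4a31 and Cyp4a32, and of Cyp4a12a and Cyp4a12b, are uncertain between near copies, because the methods allow 1 alignment per read, and whether reads with several equal matches were dropped or placed once is not given in the sources used here.

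Total counts ran from 8545959 to 28445590 per library. The labels name flow cell 375 for the fed 10:30 livers of both genotypes and the fasted WT livers, and flow cell 377 for all others, so that fasted α7HMZ livers are compared across flow cells with both fed α7HMZ and fasted WT livers. In those comparisons the flow cell and the condition cannot be told apart. In 1 library, α7HMZ fed 10:30 replicate 1, 50.8% of the counts came from the ribosomal RNA gene Rn45s, against 0.0640% to 3.76% in the other 23. Hnf4a itself lay between 580 and 1106 CPM in WT and between 800 and 1353 CPM in α7HMZ livers, and its counts do not separate the isoforms, so they do not check the genotype. CPM are counts scaled to library size, with TMM factors over all 24 libraries. In bulk liver, fewer cells of a type and less RNA per cell cannot be told apart.

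In fed WT livers at 10:30 the most abundant of the 10 transcripts per length was Cyp4f14, at 169.6 ± 4.00 CPM per kb (SD, n = 3). Cyp4a12a followed at 125 ± 57.0 and Cyp4v3 at 112 ± 3.08 CPM per kb, and the mean ± SD of Cyp4a12a overlapped that of the other 2. Cyp4a10 stood at 90.9 ± 12.7 and Cyp4a14 at 57.2 ± 10.5 CPM per kb. After fasting the order was led by Cyp4a14 at 3849 ± 891 and Cyp4a10 at 2308 ± 286 CPM per kb, with Cyp4f14 next to last at 63.9 ± 2.77. The 10 genes together took 0.185 ± 0.0259% of all counts in fed WT and 1.56 ± 0.299% in fasted WT livers at 10:30.

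Fasting raised Cyp4a14, Cyp4a10, Cyp4a31 and Cyp4a32 in livers of either genotype, from 9.24-fold for Cyp4a32 to 67.0-fold for Cyp4a14 in WT livers, and it lowered Cyp4f14. Cyp4a14 read 119.6, 173 and 154 CPM in the 3 fed WT livers at 10:30 and 12619, 9221 and 8191 CPM in the 3 fasted ones. Every fasted liver was far above every fed one. The log2 fold change was 6.07 (SE 0.36, adjusted p = 6.69e-07). Fed and fasted livers did not overlap for 46.5% of all genes tested in WT and 28.1% in α7HMZ livers. Cyp4a10 read 184, 221 and 169 CPM fed and 5381, 5017 and 4202 CPM fasted, again with no overlap, and rose 25.3-fold, a log2 fold change of 4.66 (SE 0.23, adjusted p = 2.86e-07). The adjusted p-values of this report come from edgeR's quasi-likelihood test over all genes with Benjamini-Hochberg adjustment, and a gene called higher or lower has an adjusted p under 0.05. The near copies of Cyp4a10 rose too, Cyp4a31 by a log2 fold change of 4.03 (SE 0.23, adjusted p = 6.69e-07) and Cyp4a32 by 3.21 (SE 0.26, adjusted p = 6.06e-06). All of these WT livers came from flow cell 375. In all, 5 of the 10 genes were called, 4 higher and 1 lower, against 22.7% of all genes tested (12% higher and 10.6% lower).

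**Figure D1:**
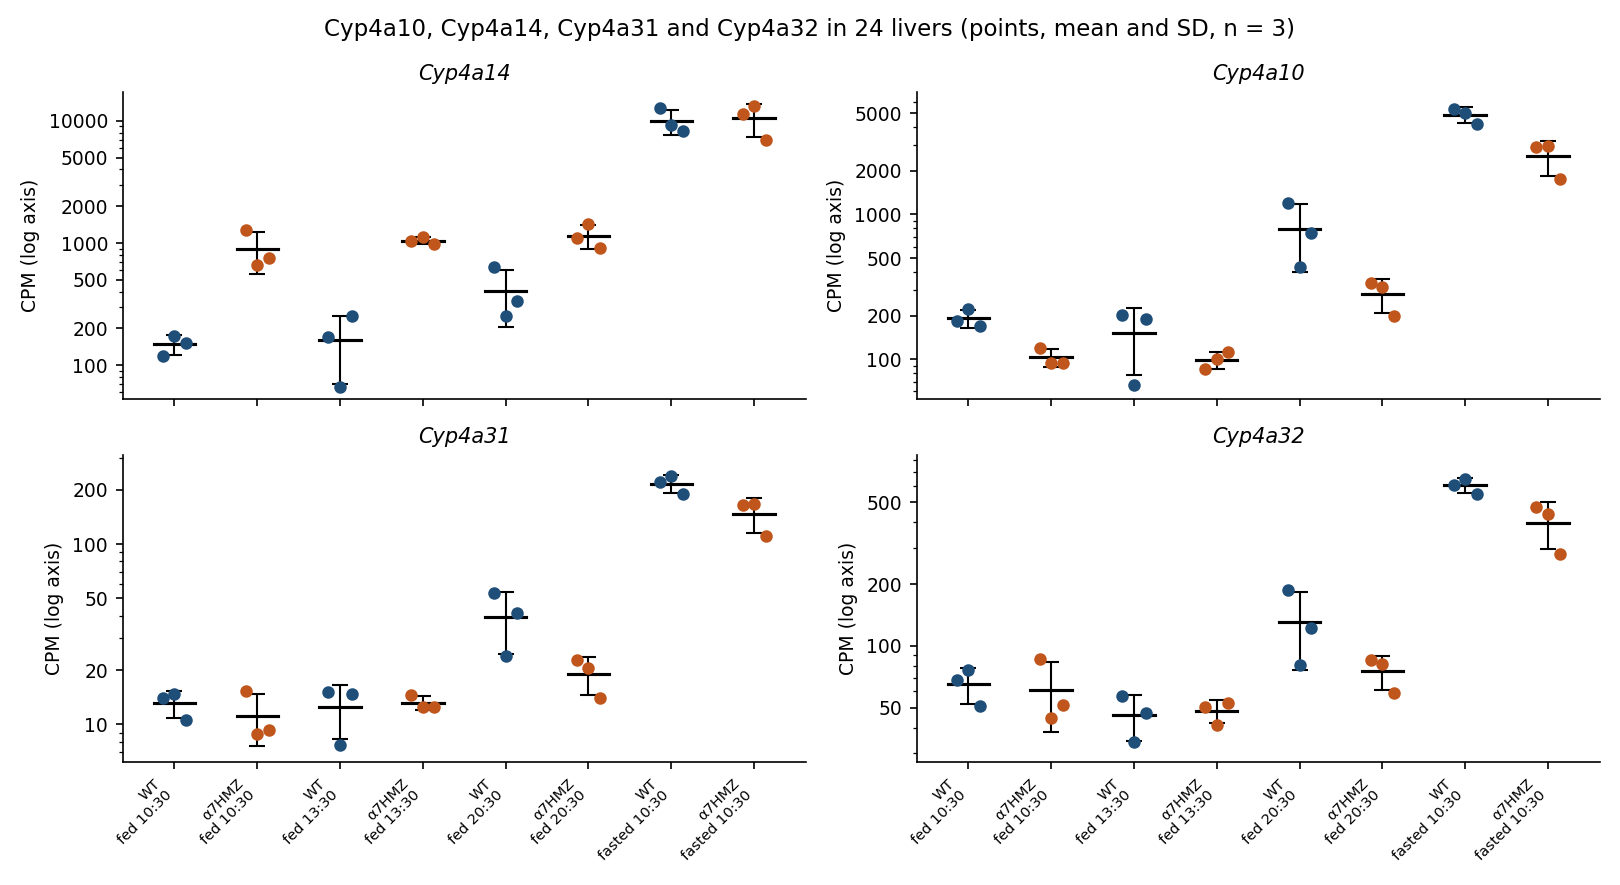
Level of Cyp4a14, Cyp4a10, Cyp4a31 and Cyp4a32 in each of 24 livers, in CPM on a log axis, by group (blue WT, orange α7HMZ; points are livers, the line the mean and the bar the SD, n = 3). The fasted livers stand above all fed livers for each gene, and for Cyp4a14 the fed α7HMZ livers stand above the fed WT livers taken at the same time.

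The same genes rose in fasted α7HMZ livers, where 6 of the 10 were called, 5 higher and 1 lower, against 12.6% of all genes tested (6.68% higher and 5.9% lower). Cyp4a10 read 121, 94.8 and 94.3 CPM in fed and 2897, 2976 and 1742 CPM in fasted α7HMZ livers, a log2 fold change of 4.62 (SE 0.23, adjusted p = 1.59e-07). That is close to the value in WT livers, and the difference between the genotypes in this change was -0.04 (SE 0.29, adjusted p = 0.958). Cyp4a14 started higher, at 1284, 662 and 749 CPM, and reached 11403, 13226 and 7008 CPM, so its rise was 11.7-fold, a log2 fold change of 3.55 (SE 0.32, adjusted p = 1.6e-05). Cyp4a31 rose by 3.73 (SE 0.23, adjusted p = 1.67e-06) and Cyp4a32 by 2.71 (SE 0.26, adjusted p = 2.56e-05) on the log2 scale. The fasted livers of the genotypes overlapped for Cyp4a14, with a difference of 0.07 (SE 0.29, adjusted p = 0.9). The change of Cyp4a14 on fasting was smaller in α7HMZ than in WT livers, with a log2 difference of -2.51 (SE 0.41, adjusted p = 0.0295). It was the 1 member among the 33 of 13103 genes called (0.252%, with 0.16% above and 0.0916% below 0) for the interaction of genotype and fasting. This call was lost on leaving out any of the 3 fed WT livers or fasted WT replicate 2 (adjusted p of 0.0734 to 0.102), while the difference stayed between -2.71 and -2.17. It also rests on the fasted α7HMZ libraries, which alone of these 4 groups came from flow cell 377.

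Before fasting, Cyp4a14 was higher in α7HMZ livers at every time of day, whereas Cyp4a10 was lower on average. At 13:30 fed WT livers read 169, 66.5 and 251 CPM of Cyp4a14, and fed α7HMZ livers read 1033, 1121 and 980.2 CPM. By 20:30 it was 634, 252 and 333 CPM in WT livers, against 1097, 1429 and 914 CPM in α7HMZ livers. The groups did not overlap at any of the 3 times. Neither did those of 33.1%, 35.2% and 33.2% of all genes tested at 10:30, 13:30 and 20:30. For Cyp4a14 the log2 fold change between genotypes at 10:30 was 2.59 (SE 0.39, adjusted p = 0.000158). The 13:30 value was 2.69 (SE 0.40, adjusted p = 0.000133), and that of the evening, at 20:30, was 1.49 (SE 0.38, adjusted p = 0.0108). At 10:30 the α7HMZ library with most Rn45s was the highest of its group, and without it and 3 other fed libraries with the most Rn45s, Krt19 (a bile duct gene) or Ctrb1 (a pancreatic gene), which are WT 20:30 replicate 2 and α7HMZ 20:30 replicates 1 and 3, the value at 10:30 was 2.22 (adjusted p = 0.000801) and that at 20:30 was 1.57 (adjusted p = 0.0567, no longer called). That setting leaves 1 α7HMZ liver, replicate 2, at 20:30, which is assumed to vary like the other groups, so its values at 20:30 say little about stability. The call at 20:30 was also lost without WT fed 20:30 replicate 3. The mean Cyp4a14 difference of the 3 times was 2.26 (SE 0.22, adjusted p = 3.71e-07), a 4.79-fold difference. All these genotype differences in fed livers lie within a flow cell at each time.

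At 13:30 the WT livers gave 201, 66.7 and 190.5 CPM of Cyp4a10 and the α7HMZ livers 85.4, 99.8 and 112 CPM. By 20:30 WT livers had 1204, 431 and 741 CPM and α7HMZ livers 335, 317 and 198 CPM. The 3 WT livers were above all 3 α7HMZ livers at 10:30 and 20:30, and at 13:30 WT replicate 2 fell below the lowest α7HMZ liver. The average difference was -1.0 (SE 0.20, adjusted p = 0.000918), the single times gave -0.89, -0.62 and -1.48, and only 20:30 was called (adjusted p of 0.0849, 0.287 and 0.00643). After fasting Cyp4a10 was still lower in α7HMZ livers, with a difference of -0.94 (SE 0.20, adjusted p = 0.00699), a call lost with offsets for GC content or with all 24 libraries in 1 fit. That comparison crosses flow cells. Cyp4a31 was called at 20:30 alone, -1.06 (SE 0.28, adjusted p = 0.0128), though not without WT replicate 1 or α7HMZ replicate 3, and Cyp4a32 in none of the genotype comparisons. Summing the counts of Cyp4a10, Cyp4a31 and Cyp4a32 gave 962 ± 457 (WT) and 378 ± 93.0 CPM (α7HMZ) at 20:30, and 5687 ± 663 and 3083 ± 824 CPM after fasting. The sum does not depend on how reads were placed among these 3 genes. Reads dropped for several equal matches, if any were, would be missing from it.

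Because Cyp4a14 and Cyp4a10 differed between genotypes in opposite directions, their ratio within a library set the livers apart without any scaling. The count of Cyp4a14 divided by that of Cyp4a10 was 0.78 ± 0.128 in fed WT and 8.53 ± 1.90 in fed α7HMZ livers at 10:30, 1.05 ± 0.242 and 10.7 ± 1.75 at 13:30, and 0.521 ± 0.0682 and 4.13 ± 0.74 at 20:30 (SD, n = 3). The highest fed WT liver stood at 1.32 and the lowest fed α7HMZ liver at 3.28. Fasting brought the ratio to 2.04 ± 0.267 in WT and 4.13 ± 0.271 in α7HMZ livers. It was higher in every fasted than in every fed WT liver at 10:30 and lower in every fasted than in every fed α7HMZ liver at 10:30, and the genotypes did not overlap in either state. These are values per liver with no test.

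**Figure D2:**
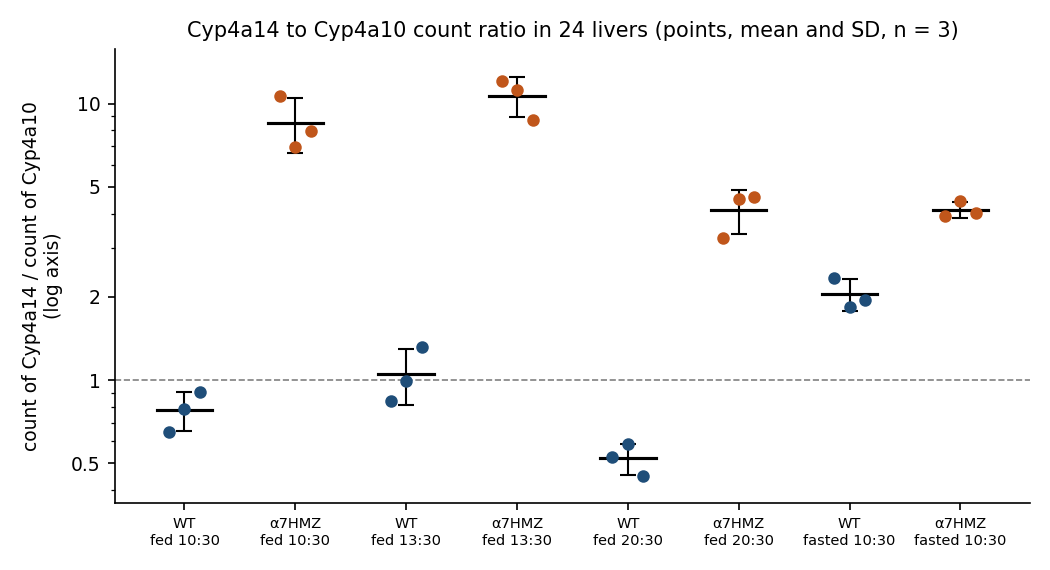
Count of Cyp4a14 divided by the count of Cyp4a10 in each of 24 livers, on a log axis, by group (blue WT, orange α7HMZ; points are livers, the line the mean and the bar the SD, n = 3; the dashed line marks equal counts). Fed WT livers lie at or below 1.32, and all fed α7HMZ livers lie at or above 3.28.

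Cyp4a12a and Cyp4a12b did not follow this pattern. Cyp4a12a read 199, 459.9 and 252 CPM in fed and 247, 291 and 279.8 CPM in fasted WT livers, and the 2 groups overlapped, with a difference of -0.16 (SE 0.23, adjusted p = 0.651). Cyp4a12b read 132, 217 and 136 CPM fed and 189, 193 and 178 CPM fasted, 0.21 (SE 0.17, adjusted p = 0.405). Fed α7HMZ livers at 10:30 gave 362, 414 and 353 CPM of Cyp4a12a and 219, 232 and 201 CPM of Cyp4a12b. In fasted α7HMZ livers the values were 435, 556 and 503 CPM for Cyp4a12a and 354, 419 and 335 CPM for Cyp4a12b, all above the fasted WT livers. Fasted livers of the genotypes did not overlap for 33.6% of all genes tested. The genotype difference after fasting was 0.87 (SE 0.23, adjusted p = 0.0245) for Cyp4a12a and 0.98 (SE 0.17, adjusted p = 0.00189) for Cyp4a12b, and the fed average was 0.18 (SE 0.14, adjusted p = 0.374) and 0.36 (SE 0.11, adjusted p = 0.0159). The call for Cyp4a12a after fasting was lost without any 1 of the fasted WT livers or without fasted α7HMZ replicate 2 or 3. Its fed average was called higher with offsets for GC content or without WT fed 10:30 replicate 2, the liver at 459.9 CPM. Over the alternatives that average ran up to 0.45. Without the same liver the genotype difference of Cyp4a12a at 10:30 was called higher as well (adjusted p = 0.0301). With the counts of the pair summed before the fit, the fed average call of Cyp4a12b was lost, and so was its rise of 0.77 (SE 0.17, adjusted p = 0.00876) in fasted against fed α7HMZ livers, so that which of the near copies moved cannot be told from these counts. The test of genotype by fasting called neither (adjusted p of 0.427 and 0.307). All comparisons with fasted α7HMZ livers given here cross flow cells.

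To set the 2 kinds of Cyp4a gene against each other within each liver, the log2 ratio of Cyp4a10 plus Cyp4a14 to Cyp4a12a plus Cyp4a12b was taken. It was -0.39 ± 0.34 in fed and 5.0 ± 0.32 in fasted WT livers (SD, n = 3), a difference of 5.39 or 41.9-fold. In α7HMZ livers it was 0.70 ± 0.53 fed and 3.87 ± 0.43 fasted, a difference of 3.17 or 9.0-fold. Fed and fasted livers did not overlap in either genotype. No test is given, since these genes were set against each other with earlier results of these data known.

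**Figure D3:**
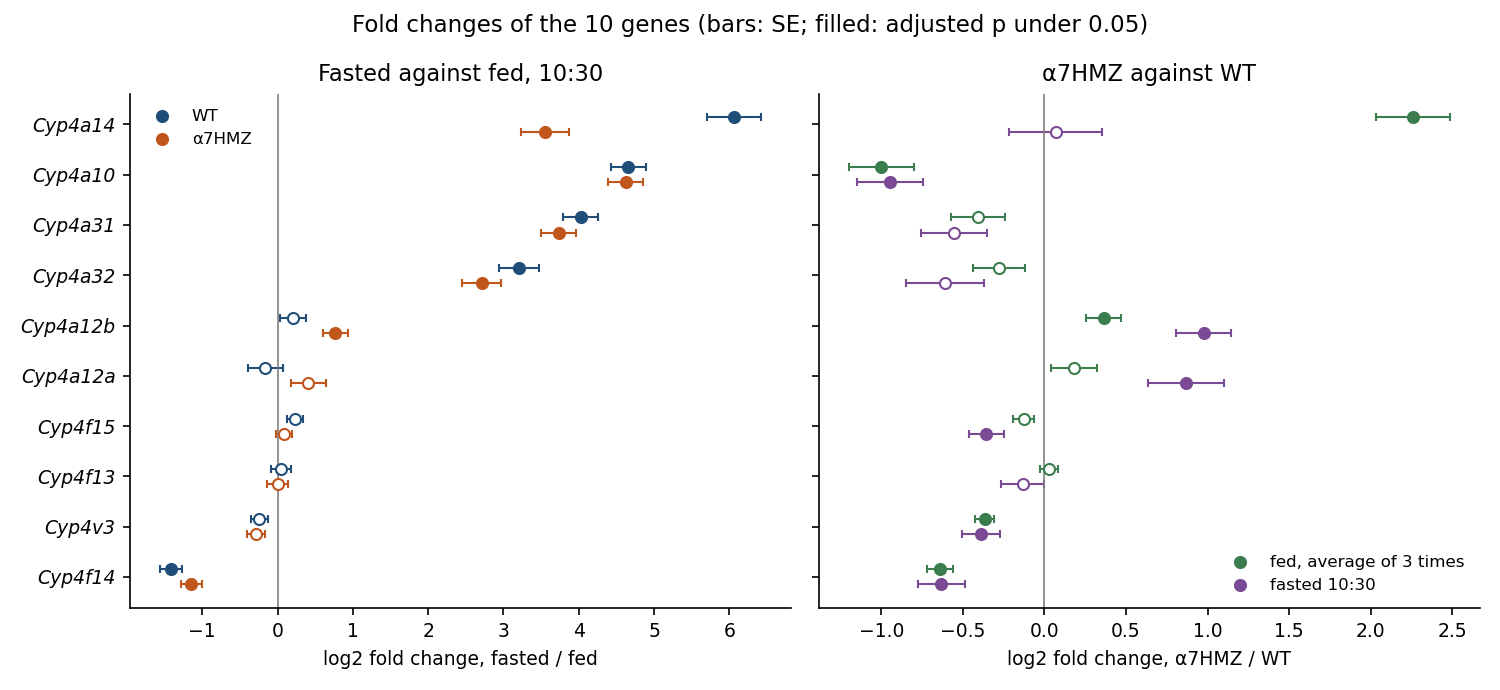
Log2 fold changes of the 10 genes, fasted against fed at 10:30 in WT (blue) and α7HMZ (orange) livers, and α7HMZ against WT in fed livers averaged over 3 times (green) and in fasted livers (purple). Bars are the SE, filled points have an adjusted p under 0.05 and open points do not. Among the 10 genes the largest rise with fasting is that of Cyp4a14 in WT livers, at 6.07, and that of Cyp4a10 in α7HMZ livers, at 4.62.

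Cyp4f14, which acts on leukotriene B4, went the other way. It read 399, 414 and 417 CPM in fed WT and 147, 158 and 159 CPM in fasted WT livers, with no overlap and a log2 fold change of -1.41 (SE 0.14, adjusted p = 2.97e-05). α7HMZ livers gave 176, 247 and 241 CPM fed and 110.3, 108 and 82.3 CPM fasted, -1.14 (SE 0.14, adjusted p = 0.000232). Fed α7HMZ livers also had less Cyp4f14 than fed WT livers whatever the time. At 13:30 WT livers gave 253, 281 and 263 CPM and α7HMZ livers 175, 170.4 and 198 CPM. In the evening WT livers gave 287, 379 and 377 CPM, still above the 264, 274 and 209 CPM of α7HMZ livers. The fed average was -0.64 (SE 0.08, adjusted p = 6.02e-06), and after fasting the difference was -0.63 (SE 0.14, adjusted p = 0.00952). At 20:30 the difference was -0.48 (SE 0.14, adjusted p = 0.0212), a call lost with offsets for GC content, with only the groups compared, and without WT replicate 2 or 3 or α7HMZ replicate 3 alone. At 13:30 it was -0.55 (SE 0.14, adjusted p = 0.0121), a call lost without α7HMZ replicate 2.

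The other Cyp4f genes and Cyp4v3 varied little. Cyp4f13 stayed between 56.5 and 87.5 CPM and Cyp4f15 between 104 and 159.7 CPM over the 24 livers. Cyp4f13 was called higher in α7HMZ livers at 13:30 alone, 0.32 (SE 0.09, adjusted p = 0.0265), and Cyp4f15 was called lower in fasted α7HMZ livers, -0.36 (SE 0.11, adjusted p = 0.0381), in a comparison across flow cells. The Cyp4f13 call was lost without WT 13:30 replicate 1 or 3 or any α7HMZ 13:30 replicate, and with no low-count filter or all 24 libraries in 1 fit (adjusted p up to 0.114). That of Cyp4f15 was lost without any 1 of the WT 10:30 or fasted α7HMZ livers, and with upper quartile factors, offsets for GC content, no low-count filter, only the groups compared or the replicate block (adjusted p up to 0.146). Cyp4v3 lay between 255 and 527 CPM. It was lower in fed α7HMZ livers on average, -0.37 (SE 0.06, adjusted p = 0.000109), a call lost with offsets for GC content (adjusted p = 0.0845), and after fasting the difference was -0.39 (SE 0.12, adjusted p = 0.038), a call lost without fasted replicate 1 or 2 of either genotype or any fed WT replicate. That call was also lost with upper quartile factors, no low-count filter, only the groups compared, and offsets for GC content, which gave -0.151 (adjusted p = 0.383). The fasted comparison crosses flow cells. The single fed times gave -0.33 at 10:30, -0.31 at 13:30 and -0.45 at 20:30 for Cyp4v3, and 10:30 and 20:30 were called. The 10:30 call was lost without any 1 WT replicate or α7HMZ replicate 2, without a low-count filter or with only the groups compared, and both calls were lost with offsets for GC content, where the value was -0.0996 at 10:30 (adjusted p = 0.46) and -0.166 at 20:30 (adjusted p = 0.197). For fasting Cyp4v3 was not called, with -0.24 (SE 0.12, adjusted p = 0.156) in WT and -0.29 (SE 0.12, adjusted p = 0.13) in α7HMZ livers.

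**Figure D4:**
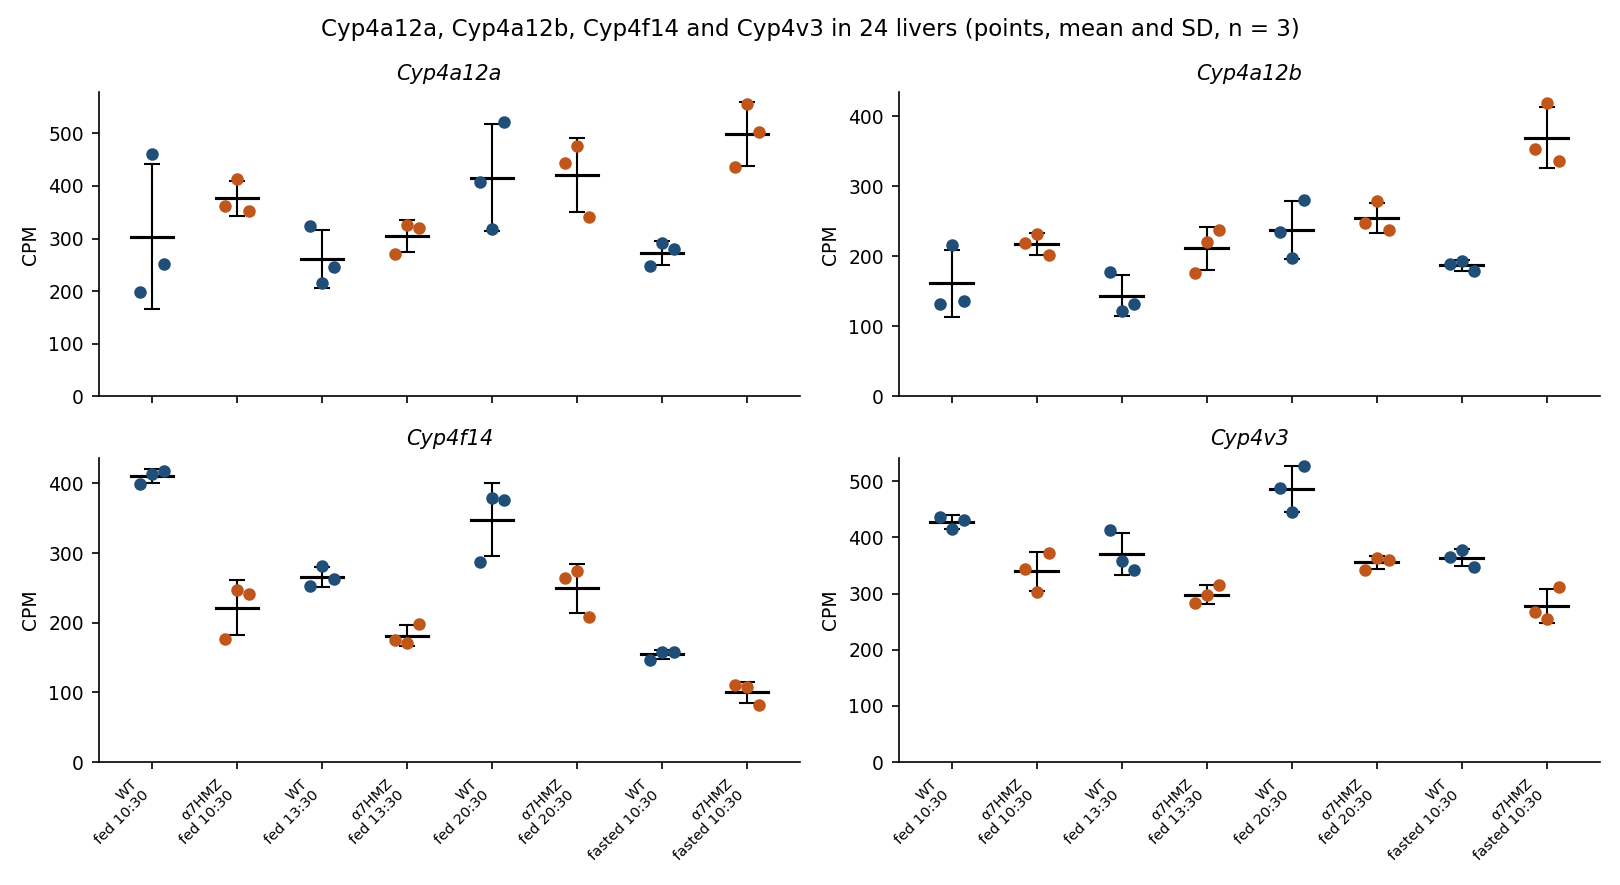
Level of Cyp4a12a, Cyp4a12b, Cyp4f14 and Cyp4v3 in each of 24 livers, in CPM on an axis from 0, by group (blue WT, orange α7HMZ; points are livers, the line the mean and the bar the SD, n = 3). Cyp4f14 is lowest in the fasted groups, and the group means of Cyp4a12a and Cyp4a12b are highest in fasted α7HMZ livers, where those of Cyp4a12a overlap fed livers at 20:30.

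Counting over the 10 genes, the genotype difference in fed livers was called for 3 at 10:30, 3 at 13:30 and 5 at 20:30, where 17.3%, 12.8% and 19.1% of all 13334 genes were called. At 10:30 1 was higher and 2 lower (Cyp4f14 and Cyp4v3), against 8.36% and 8.98% of genes. At 13:30 2 were higher and 1 lower, against 6.19% and 6.61%, and at 20:30 1 was higher and 4 lower, against 8.29% and 10.8%. Averaged over the times, 2 genes were higher and 3 lower, against 13.3% and 13.2% of all genes (26.5% in either direction). After fasting, in a comparison across flow cells, 2 were higher and 4 lower in α7HMZ livers, against 6.9% and 8.65% (15.5%). The median log2 fold change of the 10 was -0.20 in the fed average and -0.37 after fasting, against 0.03 and 0.00 over all genes.

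Between 13:30 and 20:30, after lights had gone off, 7 of the 10 genes rose in fed WT livers, against 11.6% of all genes higher, 9.97% lower and 21.6% in either direction. Cyp4a10 rose by 2.38 (SE 0.36, adjusted p = 0.000402), Cyp4a31 by 1.69 (SE 0.28, adjusted p = 0.000925), Cyp4a32 by 1.51 (SE 0.28, adjusted p = 0.00177) and Cyp4a14 by 1.33 (SE 0.38, adjusted p = 0.019). The Cyp4a14 call was lost without WT 13:30 replicate 2 or WT 20:30 replicate 1 (adjusted p up to 0.115). Cyp4a12b (0.73), Cyp4f13 (0.29) and Cyp4v3 (0.39) were the others. Cyp4a12b, Cyp4f13 and Cyp4v3 each lost the call without WT 20:30 replicate 3, and Cyp4v3 and Cyp4f13 also without WT 13:30 replicate 3. Cyp4f13 lost it as well without WT 13:30 replicate 1, WT 20:30 replicate 2 or α7HMZ 13:30 replicate 1, without a low-count filter, with all 24 libraries in 1 fit and with only the groups compared. Offsets for GC content ended both calls, at 0.173 for Cyp4v3 and 0.172 for Cyp4f13. In α7HMZ livers 1 gene, Cyp4a10, rose, by 1.52 (SE 0.35, adjusted p = 0.0159), against 5.21% of all genes (3.16% higher, 2.05% lower), and without α7HMZ fed 13:30 replicate 1 or 2 or fed 20:30 replicate 1 it was not called. For Cyp4a14 the value in α7HMZ livers was 0.13 (SE 0.37, adjusted p = 0.893). These counts do not show that the genotypes differ over the day: the edgeR test of genotype by time called 0 of the 10 genes, against 4.99% of all genes. At an unadjusted p under 0.05 it had 2, against 26.6% of all genes, namely Cyp4a31 (adjusted p = 0.133) and Cyp4f13 (adjusted p = 0.0572), and DESeq2 called 1, against 1618 of 13334 genes.

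The wider pathway was followed in lists of genes chosen by role, whose counts stand against 12% higher and 10.6% lower of all genes for fasting in WT livers, and 13.3% and 13.2% in the fed average. Of 23 tested targets of PPARα, 21 rose and 0 fell with fasting in WT livers, with a median log2 fold change of 1.27 against 0.00 over all genes. Vnn1, a pantetheinase, rose by 3.39, Acot1, a thioesterase, by 3.36, and Ehhadh, an enzyme of peroxisomal β-oxidation, by 2.81 on the log2 scale. In α7HMZ livers, compared across flow cells, 21 rose and 0 fell with fasting, against 6.68% higher and 5.9% lower of all genes. In the fed average 10 targets were higher and 2 lower in α7HMZ livers, with Acot2 at 1.07 and Vnn1 at 1.26. PPARα itself, Ppara, was lower in fed α7HMZ livers, -0.42, and among it and 12 partners and regulators 2 were higher, among them the coactivator Ncoa1 at 0.36, and 4 lower. With fasting in WT livers 0 of these 13 rose and 3 fell, a share near that of all genes called (22.7%).

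Genes that act with or after the ω-hydroxylases split. Of 10 tested partners (reductases, alcohol and aldehyde dehydrogenases, acyl-CoA synthetases and transporters), 5 rose and 4 fell with fasting in WT livers, with log2 fold changes of 1.18 for Slc27a2 and of -1.51 and -0.98 for the alcohol dehydrogenases Adh1 and Adh4. In the fed average 1 was higher and 5 lower in α7HMZ livers, with Cyb5r3 at -0.93, Acsl5 at -0.79 and Slc27a2 at -0.86. Of 18 peroxisomal β-oxidation genes, 13 rose and 0 fell with fasting in WT livers, and 5 were higher and 6 lower in fed α7HMZ livers, among them Abcd2, a transporter, at 2.19 and Crat, the carnitine acetyltransferase, at 0.83. Of 4 tested further Cyp4 genes, 2 rose and 2 fell with fasting in WT livers, with Cyp4f39 at 2.50 and Cyp4b1 at -1.0. Of 12 further cytochrome P450 and epoxide hydrolase genes of arachidonate metabolism, 2 were higher and 7 lower in fed α7HMZ livers, with Cyp2c50 at -4.89, Cyp2c54 at -4.50 and Cyp2c44 at -1.75.

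Cyp4a12a is known as a male-biased gene, so sex-biased genes were counted beside it. Of 18 male-biased liver genes, none of them a member, 1 was higher and 12 lower in fed α7HMZ livers, with Mup7 at -5.34, and of 14 tested female-biased genes 7 were higher and 0 lower, with Cyp2b9 at 4.88. Cyp4a12a in the same comparison gave 0.18 and was not called. Of 13 genes of the growth hormone axis 0 were higher and 3 lower, among them Ghr at -0.44 and Igf1 at -0.27, a share no larger than the 26.5% of all genes called.

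By Pearson's r of log2 CPM over the 24 livers, which share their groups, genes among those most like Cyp4a14 of 10910 were Vnn1 (0.95), Crat (0.95), Hsdl2 (0.93) and Retsat (0.93). Those most like Cyp4a12a were Cyp4a12b (0.90), which shares its reads, Bsg (0.74), Ifi27l1 (0.73), Pebp1 (0.71) and Rhbg (0.68). Those most like Cyp4f14 were Aldoc (0.96), Acsm1 (0.96), Gcat (0.96), Copz1 (0.95) and Cers2 (0.95). Among the 10 genes, Cyp4a10 had an r of 0.98 with Cyp4a31 and with Cyp4a32, and 0.76 with Cyp4a14, and Cyp4a14 had -0.86 with Cyp4f14. These are descriptions with no test.

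The livers carried the defining markers of hepatocytes. The summed level of 8 of them (Alb, Apoa1, Apob, Ttr and others) was 151358 to 175503 CPM in fasted WT and 92508 to 105887 CPM in fasted α7HMZ livers, with no overlap. At 10:30 it was 132883 to 163159 CPM in fed WT and 108172 to 127084 CPM in fed α7HMZ livers, again with no overlap, and none of the 8 was at 0. At 13:30 the genotypes overlapped, with 102193 to 118893 CPM in WT and 91783 to 104499 CPM in α7HMZ livers, and at 20:30 they did not (143482 to 175837 and 112124 to 133600.2 CPM). Alb alone made up most of these sums, with a mean of 112054 CPM in fasted WT and 65821 CPM in fasted α7HMZ livers. Of markers of other cells, 5 of 6 tested sinusoidal endothelial genes and 1 of 6 tested Kupffer cell genes were lower in fasted than in fed WT livers, and 2 of 5 cholangiocyte genes, Epcam and Krt19, were higher. Of stellate cell genes 2 of 6 were lower, of lymphocyte genes 1 of 4 was higher, and of pancreatic acinar genes 1 of 2 was lower. Over all genes tested, 12% were higher and 10.6% lower with fasting in WT livers. Between fasted genotypes, 3 of 8 hepatocyte genes were lower in α7HMZ livers, 2 of 6 Kupffer cell and 2 of 6 sinusoidal genes were higher, and of 5 cholangiocyte genes 1 was higher and 3 lower. In that comparison, which crosses flow cells, 6.9% of all genes tested were higher and 8.65% lower. The summed Kupffer cell level ran from 136 to 713 CPM in fasted α7HMZ and from 81.8 to 159 CPM in fasted WT livers. In the fed average 6 of 8 hepatocyte genes were lower, 2 of 5 cholangiocyte genes were higher, and 1 of 6 sinusoidal, 1 of 6 stellate and 1 of 3 tested acinar genes was lower. The shares of all genes there were 13.3% higher and 13.2% lower. Alas2, the 1 erythroid marker tested, was lower in fed α7HMZ livers on average (-1.31), in fasted α7HMZ against fasted WT livers (-0.83), and with fasting in WT (-1.0) and α7HMZ livers (-0.62). Their part in the changes of the 10 genes was not tested.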

How the data were processed

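Poly(A) RNA of 24 livers was read as 75-base single ends from an unstranded kit. The authors aligned to mm10 with TopHat2 2.1.1, keeping 1 alignment per read, and used HTSeq 0.6.1 for counting. Whole reads per gene stand in the deposited count table. The FPKM deposited per sample by the authors are those counts divided by a size factor and gene length, and served only as an alternative for the ratio of Cyp4a10 plus Cyp4a14 to Cyp4a12a plus Cyp4a12b. Genes were tested with edgeR 4.0.16 in R 4.3.3 (TMM, filterByExpr by group, quasi-likelihood test, Benjamini-Hochberg over all genes, threshold 0.05), in 1 fit of 18 fed libraries (13334 genes) and 1 of 12 libraries at 10:30 (13103 genes). The fits share the fed 10:30 livers, and fasting and genotype comparisons share groups. SE is the log2 fold change over the root of F. Steps were tested on simulated data. Per-kb levels use GENCODE exon lengths. P-values measure the spread among mice harvested in succession. CPM carry counting error set by the 8545959 to 28445590 counts per library.

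All 10 members are reported. From each list, genes were named among the 3 called with the smallest p in fasted against fed WT and in the fed average, and the 5 genes most like Cyp4a14, Cyp4a12a and Cyp4f14 were taken by Pearson's r, of which a few genes are not reported here. Members and lists were chosen with earlier results of these data known. Alternatives were RLE or upper quartile factors, DESeq2 1.42.0, offsets that level GC content within libraries and quantiles between them, other count filters, other sets of libraries, a replicate block, summed paralogs and leaving out each library. Leaving out Rn45s, or the 4 libraries with most Rn45s, Krt19 or Ctrb1, was chosen after seeing the data.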

Additional observations from a re-analysis of the deposited data

Results flagged for a closer look

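The change of Cyp4a14 on fasting differed between the genotypes by the interaction test, with a log2 difference of -2.51 (SE 0.41) and an adjusted p of 0.0295 by edgeR. Cyp4a14 went from 149 ± 27.2 to 10010.2 ± 2317 CPM in WT livers and from 898 ± 337 to 10546 ± 3196 CPM in α7HMZ livers (SD, n = 3). Over the alternatives the adjusted p ran from 9.77e-08 with DESeq2 to 0.102 without WT fed 10:30 replicate 1, and the fasted α7HMZ libraries came from another flow cell than the other 3 groups.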

How the results depend on the processing

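Of 42 comparisons in which a member was called, 22 were called under every alternative and 0 reversed. Of 68 not called, 47 stayed so, and the 20 results with a reversal had values of at most 0.21 in size. Where counts of called members moved, the cause was not tested. Without the 4 libraries with most Rn45s, Krt19 or Ctrb1 the fed genotype count was 5 at 10:30 (reported 3) and 2 at 20:30 (reported 5), and α7HMZ 20:30 against 13:30 gave 2 (reported 1). The values at 20:30 rest on 1 remaining α7HMZ liver, assumed to vary like the other groups. Offsets for GC content gave 3 at 20:30 and 3 after fasting (reported 6). At 13:30 DESeq2, a minimum of 50 counts and only the groups compared each gave 5 (reported 3). DESeq2 gave 2 and summed paralogs 3 for α7HMZ 20:30 against 13:30, a summed gene counting once per member. For genotype by time, upper quartile factors, GC offsets, DESeq2 and the 50-count minimum each gave 1 (reported 0). With the deposited FPKM the ratio differences on fasting kept their direction in both genotypes. Leaving out 1 library gave 2 to 4 members at fed 10:30, 1 to 5 at 13:30, 3 to 6 at 20:30, 5 to 6 in the average, 0 to 1 for genotype by time, 4 to 8 for WT and 0 to 2 for α7HMZ 20:30 against 13:30, 5 to 6 for fasting in WT and 6 to 6 in α7HMZ, 3 to 8 for fasted genotype, and 0 to 1 for genotype by fasting. A pairing of mice by replicate number was not evident, though 3 libraries per group cannot exclude one. Of 84 same-number pairs 16 had r over 0.1 (median 0.003, range -0.364 to 0.365), and 8 of 24 libraries correlated best with their own number. With the replicate block the counts were 6 at 20:30, 6 in the average, 8 for WT 20:30 against 13:30 and 7 for fasted genotype, and as reported elsewhere. Reversals outside single libraries, on the log2 scale, were as follows. GC offsets turned Cyp4f15 at 13:30 (0.071), at 20:30 (0.11) and in the average (0.031), Cyp4f13 at 20:30 (0.037) and on fasting in WT (-0.076) and α7HMZ (-0.095), Cyp4a14 in α7HMZ 20:30 against 13:30 (-0.016) and Cyp4a10 for genotype by fasting (0.15). Upper quartile factors turned Cyp4f15 at 13:30 (0.011), and the replicate block Cyp4a12a at 20:30 (-0.0022). With summed paralogs, Cyp4a31 and Cyp4a32 at 13:30 took the value of their sum with Cyp4a10 (-0.39 each). Cyp4a12b on fasting in WT took that of its sum with Cyp4a12a (-0.023). These are counted as reversals, though they are values of the sums and not of the single genes. Cyp4f13 on fasting in α7HMZ was -0.0012 with all 24 libraries, -4.44e-05 with only the groups compared, -0.00019 without Rn45s and -0.027 without the 4 libraries, which gave Cyp4a10 for genotype by fasting 0.079. Leaving out 1 library moved Cyp4a32 at 10:30 between -0.46 and 0.074. At 13:30 Cyp4a31 lay between -0.17 and 0.26 and Cyp4a32 between -0.11 and 0.26. At 20:30 Cyp4a12a lay between -0.14 and 0.21, Cyp4a12b between -0.014 and 0.24, and Cyp4f15 between -0.20 and 0.0092. Cyp4f13 in the average lay between -0.0037 and 0.051, and Cyp4a14 in α7HMZ 20:30 against 13:30 between -0.056 and 0.27. On fasting in WT, Cyp4a12a lay between -0.39 and 0.27 and Cyp4f13 between -0.15 and 0.18, and in α7HMZ Cyp4f13 between -0.031 and 0.023. In fasted livers the genotype difference lay between -0.13 and 0.28 for Cyp4a14 and between -0.26 and 0.063 for Cyp4f13. For genotype by fasting Cyp4a10 lay between -0.17 and 0.16, Cyp4v3 between -0.15 and 0.030, and Cyp4f13 between -0.17 and 0.15.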
